A study of Mus musculus with 5 samples.

Results

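Interleukin receptor genes were examined for binding of BRG1 in macrophages grown from mouse bone marrow. The genes were taken by symbol (Il, a number, r and any further letters or digits) from the protein-coding genes of RefSeq on GRCm38.p6, the assembly of mm10, leaving out the antagonist gene Il1rn and the shared chain gene Il10rb. This gave 39 of 21887 protein-coding genes, 34 on chromosomes 1 to 19 and 5 on X. BRG1 is the catalytic ATPase, encoded by Smarca4, of SWI/SNF complexes, which use ATP to slide or evict nucleosomes, and BAF60a, encoded by Smarcd1, is one of their accessory subunits. Chromatin immunoprecipitation and sequencing gave 1 BRG1 library each from Baf60a knockout macrophages with oxidised low-density lipoprotein (oxLDL KO), wild-type macrophages with it (oxLDL WT), and untreated knockout (KO) and wild-type (WT) macrophages. All 4 were primary bone marrow-derived macrophages immunoprecipitated with the same antibody, and an input library was not analysed here. The sources used here do not give the Baf60a allele, any Cre driver, the dose and time of oxLDL, or the strain, sex, age and number of the mice. With 1 library per group no difference can be set against replicate error, so no p-value is given, and every count below describes these libraries.

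Interleukin receptors fall into a few families. Receptors of the class I and class II cytokine families, such as those for IL-4, IL-6, IL-10, IL-12 and IL-21, have no kinase of their own and signal through bound JAK kinases to STAT transcription factors. Receptors of the IL-1 family carry a TIR domain and signal through MyD88 and IRAK kinases, and IL-17 receptors recruit the adaptor Act1. Many are built from a private chain for 1 cytokine and a chain shared between several, so that the set of chains a cell makes decides which cytokines it can answer. The 39 genes were set in classes from textbook knowledge. The macrophage class held 10 receptors (Il1r1, Il1r2, Il1rap, Il3ra, Il4ra, Il6ra, Il10ra, Il13ra1, Il15ra, Il17ra). The lymphocyte class held 10 (Il2ra, Il2rb, Il7r, Il9r, Il12rb1, Il12rb2, Il18r1, Il18rap, Il21r, Il23r). A further 2 were set apart as known in both (Il2rg, Il27ra), and 17 were others. A class label does not mean that a receptor is absent from other cells. A contrast of these classes is therefore not a contrast of cell lineages.

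A gene was counted as having a peak when the summit of a deposited peak lay in the gene body or within 20 kb of it. The authors' lists held 4668 peaks in oxLDL KO, 9907 in oxLDL WT, 139 in KO and 237 in WT. No list had a peak on X or Y, so the 5 X-linked receptor genes (Il13ra1, Il2rg, Il13ra2, Il1rapl1 and Il1rapl2) are without a value in practice. The lowest local background of each list was 3.42 fragments in oxLDL KO, 3.76 in oxLDL WT, 3.84 in KO and 2.7 in WT. This value was solved from the deposited fold enrichment and p-value. It is not a measure of library depth, which was not compared. By the same rule, macrophage marker genes had peaks at 9 of 10 in oxLDL KO and 10 of 10 in oxLDL WT. Lymphocyte markers had them at 2 of 12 in each oxLDL list, and neutrophil markers at 1 of 7 in oxLDL KO and 2 in oxLDL WT. Mast cell and eosinophil markers had them at 0 of 7 in oxLDL KO and 1 in oxLDL WT. The marker lists were chosen with earlier results of these data known. The shares of all protein-coding genes were 21.1% in oxLDL KO and 33.2% in oxLDL WT. No peak at a receptor gene lay in a region of high background, defined as over 5 times the lowest of its list.

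Of the 33 receptor genes with a sequence in the RefSeq promoter table (250 bases before to 50 after the transcription start, GRCm38.p6), 2 had a peak base inside that window, and these promoters are shown because BRG1 peaks sat on them. Capitals mark matches, on either strand, to the longer motifs searched. The Il6ra window is chr3:89913147-89913446 on the minus strand, and the Il15ra window is chr2:11705462-11705761 on the plus strand, both written 5′ to 3′ on the gene's strand.
Il6ra: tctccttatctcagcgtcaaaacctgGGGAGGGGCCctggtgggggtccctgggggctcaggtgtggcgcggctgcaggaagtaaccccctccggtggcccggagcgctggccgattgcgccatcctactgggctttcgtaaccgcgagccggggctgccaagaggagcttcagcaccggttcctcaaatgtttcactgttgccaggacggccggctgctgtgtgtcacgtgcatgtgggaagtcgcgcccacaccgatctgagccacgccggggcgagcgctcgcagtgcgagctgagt
Il15ra: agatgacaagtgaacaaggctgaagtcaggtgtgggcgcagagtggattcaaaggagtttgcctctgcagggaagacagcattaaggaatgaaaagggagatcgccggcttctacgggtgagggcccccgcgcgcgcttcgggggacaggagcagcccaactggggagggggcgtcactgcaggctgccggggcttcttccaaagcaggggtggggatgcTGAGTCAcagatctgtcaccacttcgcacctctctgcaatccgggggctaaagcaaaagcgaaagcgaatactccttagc
The Il6ra window held 1 match to an NF-kB pattern (GGGA, any 4 bases, CC), 224 bases before the start, a pattern found in 23% of 21263 promoter windows of protein-coding genes. The Il15ra window held 1 match to the AP-1 pattern TGANTCA, 30 bases before the start, against 6.99% of all windows. The short ETS core GGAA matched 3 times in each window and is present in 95.7% of all. The PU.1 pattern GAGGAAGT (3.13% of all windows), the longer ETS pattern CCGGAAGT (5.15%), the C/EBP pattern TTGCNNAA (10.2%) and the STAT pattern TTCNNNGAA (7.69%) had no match in either; GGAA also lies inside the PU.1 and longer ETS patterns. GC content was 66% in the Il6ra window and 58.7% in the Il15ra window, beside a median of 56.3% over all windows. A match describes these letters and does not show that a factor binds there.

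BRG1 peaks lay at 9 of the 39 interleukin receptor genes in oxLDL KO and at 19 in oxLDL WT, with 7 genes in both lists, 2 in oxLDL KO alone (Il9r and Il23r) and 12 in oxLDL WT alone. In oxLDL KO the share was 23.1% (Wilson 95% interval 12.6 to 38.3), and 21.1% of all protein-coding genes had a peak by the same rule, so the receptors stood near the background there. In oxLDL WT the share was 48.7% (interval 33.9 to 63.8), and the background was 33.2%. In the gene body alone the oxLDL WT share was closer to that of all genes, at 23.1% beside 19.3%. These shares include genes on X and Y, where no list had a peak. On chromosomes 1 to 19 alone, oxLDL KO had peaks at 9 of 34 receptor genes, beside 4612 of 20665 genes. There oxLDL WT had them at 19 of 34 receptor genes, beside 7260 of 20665 genes. Peaks in both lists were found at 17.5% of all genes, in oxLDL KO alone at 3.55% and in oxLDL WT alone at 15.6%. Intervals cover counting error only, and neighbouring receptor genes share windows, so the 39 genes are not independent. Counted per length, the windows of the 34 receptor genes on chromosomes 1 to 19 held 5.28 peaks per Mb in oxLDL KO and 15 per Mb in oxLDL WT, beside 3.04 and 6.46 per Mb over the windows of all genes on those chromosomes.

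**Figure D1:**
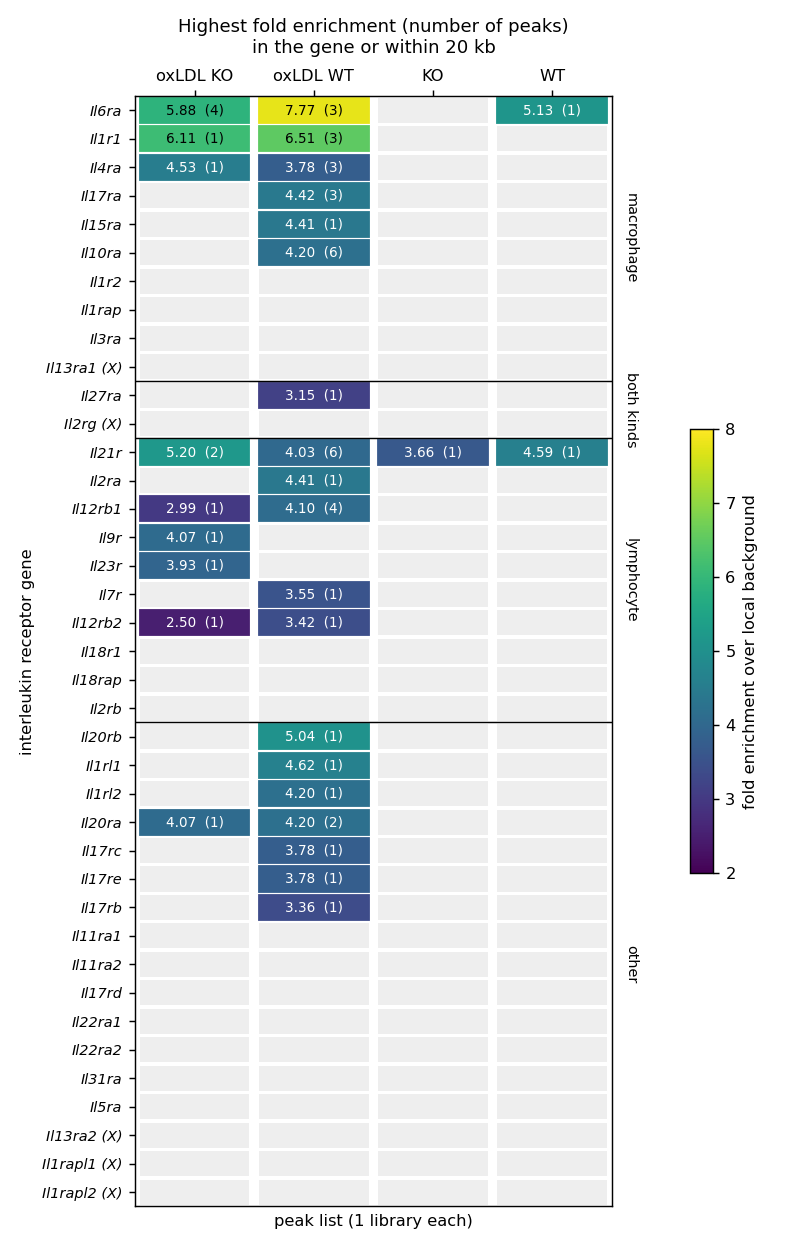
Highest fold enrichment over local background at each of the 39 interleukin receptor genes (down the page, by class) in the 4 peak lists (across), with the number of peaks in the gene or within 20 kb in parentheses. Grey cells have no peak, and X marks genes on chromosome X, where no list has peaks. Il21r is filled in all 4 lists and Il6ra in 3, while 18 genes are empty in both oxLDL lists.

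Peak summits within the gene body were counted at more macrophage than lymphocyte receptor genes. The classes were chosen with earlier results of these data known, so these counts describe the lists and cannot test a difference between classes. In oxLDL WT, 6 of the 10 macrophage receptor genes had a peak summit within the gene body, and 1 of the 10 lymphocyte receptor genes did (Il7r). The 6 include Il15ra, whose summit lies inside the annotated gene span but 88 bp upstream of the transcription start used here. In oxLDL KO these counts were 3 macrophage and 0 lymphocyte receptor genes. Among all genes 11.9% had a summit in the body in oxLDL KO and 19.3% in oxLDL WT. With the 20 kb window the macrophage counts stayed at 3 in oxLDL KO and 6 in oxLDL WT, while the lymphocyte counts were 5 in each. The macrophage count was thus the larger in the gene body in both lists, while at 20 kb it stood at 6 against 5 in oxLDL WT and was the smaller in oxLDL KO. No test of these differences was possible with 1 library each. Median gene length was 34.6 kb for the macrophage class and 33.8 kb for the lymphocyte class. Another protein-coding gene reached into the window of 6 macrophage and 8 lymphocyte receptor genes.

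Assigning each peak only to its nearest protein-coding gene, an alternative chosen after the values had been seen, left the macrophage counts at 3 in oxLDL KO and 6 in oxLDL WT and gave lymphocyte counts of 2 and 3. Over all genes, 13.7% were nearest to a peak within 20 kb in oxLDL KO and 22.4% in oxLDL WT. By peaks, the macrophage receptor windows held 6 in oxLDL KO, of which 4 were inside a receptor gene, and 19 in oxLDL WT, of which 10 were inside. The lymphocyte receptor windows held 6 in oxLDL KO, with 0 inside, and 13 in oxLDL WT, with 1 inside. Of the lymphocyte window peaks, 3 in oxLDL KO and 8 in oxLDL WT had the receptor as the nearest gene, and 6 of those 8 were at Il21r. Of the macrophage window peaks, 5 in oxLDL KO and 13 in oxLDL WT did. Per Mb of window on chromosomes 1 to 19, the macrophage class held 7.61 peaks in oxLDL KO and 24.1 in oxLDL WT. The lymphocyte class held 7.73 and 16.8, so by this measure the classes were close in oxLDL KO. Both classes stood above all genes, at 3.04 and 6.46. The 19 genes of the other classes had 1 with a peak in oxLDL KO (5.26%) and 8 in oxLDL WT (42.1%).

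**Figure D2:**
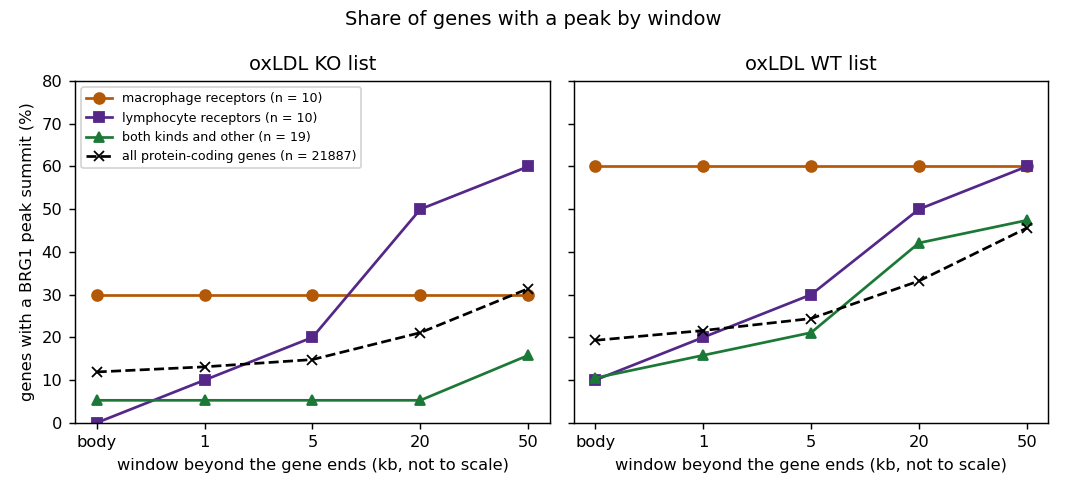
Percentage of genes with a BRG1 peak summit (vertical axis) in the gene body or within 1, 5, 20 or 50 kb of its ends (horizontal axis, steps not to scale), in the oxLDL KO list (left) and the oxLDL WT list (right). The macrophage receptors stay at 30% and 60% at every window, the lymphocyte receptors go from 0% and 10% in the body to 60% and 60% at 50 kb, and the dashed line of all genes lies at 21.1% and 33.2% at 20 kb.

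Il6ra, which encodes the ligand-binding chain of the IL-6 receptor (chromosome 3, 89869324 to 89913196), had the highest fold enrichment of any receptor gene in oxLDL WT and the second highest, after Il1r1, in oxLDL KO. Fold enrichment, taken from the authors' lists, is the fragment pileup over the local background at the summit, and it ranks peaks within 1 list only. At the Il6ra start a peak of 1006 bp in oxLDL KO had a fold enrichment of 5.88 with a summit 259 bp upstream, on a pileup of 25 fragments. In oxLDL WT a peak of 2053 bp had 7.77 with a summit 200 bp upstream, on a pileup of 36 fragments. The KO list had no peak at Il6ra, and the WT list had one of 338 bp with 5.13 and its summit 199 bp upstream. The start of Il6ra was thus marked in 3 of the 4 lists, with the WT and oxLDL WT summits 1 bp apart and the oxLDL KO summit 59 bp from that of oxLDL WT. These peaks ranked 107 of 4668 in oxLDL KO, 28 of 9907 in oxLDL WT and 20 of 237 in WT. The WT and oxLDL WT summits fall in the first part of the promoter window printed above, and the oxLDL KO summit just upstream of it.

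Further Il6ra peaks lay within the gene. A pair 4.04 kb (oxLDL KO) and 4.11 kb (oxLDL WT) from the nearer gene end overlapped, with fold enrichments of 3.62 and 3.15. A peak of 2.89 in oxLDL KO lay 0.891 kb inside and overlapped the broad oxLDL WT peak, and one of 3.99 in oxLDL WT, 2.21 kb inside, had no oxLDL KO counterpart. A last oxLDL KO peak, of 3.39, lay 6.35 kb beyond the far end and closer to the neighbouring gene She.

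Il4ra and Il21r lie in tandem on chromosome 7. Il4ra (125552271 to 125579474) encodes the chain that IL-4 and IL-13 receptors share and is known for its part in alternative activation of macrophages. Il21r (125603252 to 125634397) encodes the private chain of the IL-21 receptor and was placed in the lymphocyte class. Within Il4ra, oxLDL KO had a peak of 356 bp with a fold enrichment of 4.53 whose summit was 2.66 kb past the start. In oxLDL WT a peak of 1731 bp with 3.78 covered it fully, with its summit 3.62 kb past the start, 955 bp from the oxLDL KO summit. Another oxLDL WT peak, of 3.15, lay 753 bp upstream, and KO and WT had none at Il4ra.

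Il21r was the single receptor gene with a peak in all 4 lists, and all of its peaks lay upstream of the start. In oxLDL KO there were 2, with fold enrichments of 5.2 and 3.85 at 2.14 and 1.12 kb upstream. In oxLDL WT there were 6, from 3.19 to 4.03, spread from 0.436 to 6.5 kb upstream. KO had 1 with 3.66 at 0.429 kb, and WT 1 with 4.59 at 2.1 kb. The KO and WT peaks did not overlap each other. The KO summit was 7 bp from an oxLDL WT summit, and the WT summit was 33 bp from the stronger oxLDL KO summit. The upstream peak farthest out, in oxLDL WT at 125596930, also lay 17.5 kb from the end of Il4ra and was counted for both genes.

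**Figure D3:**
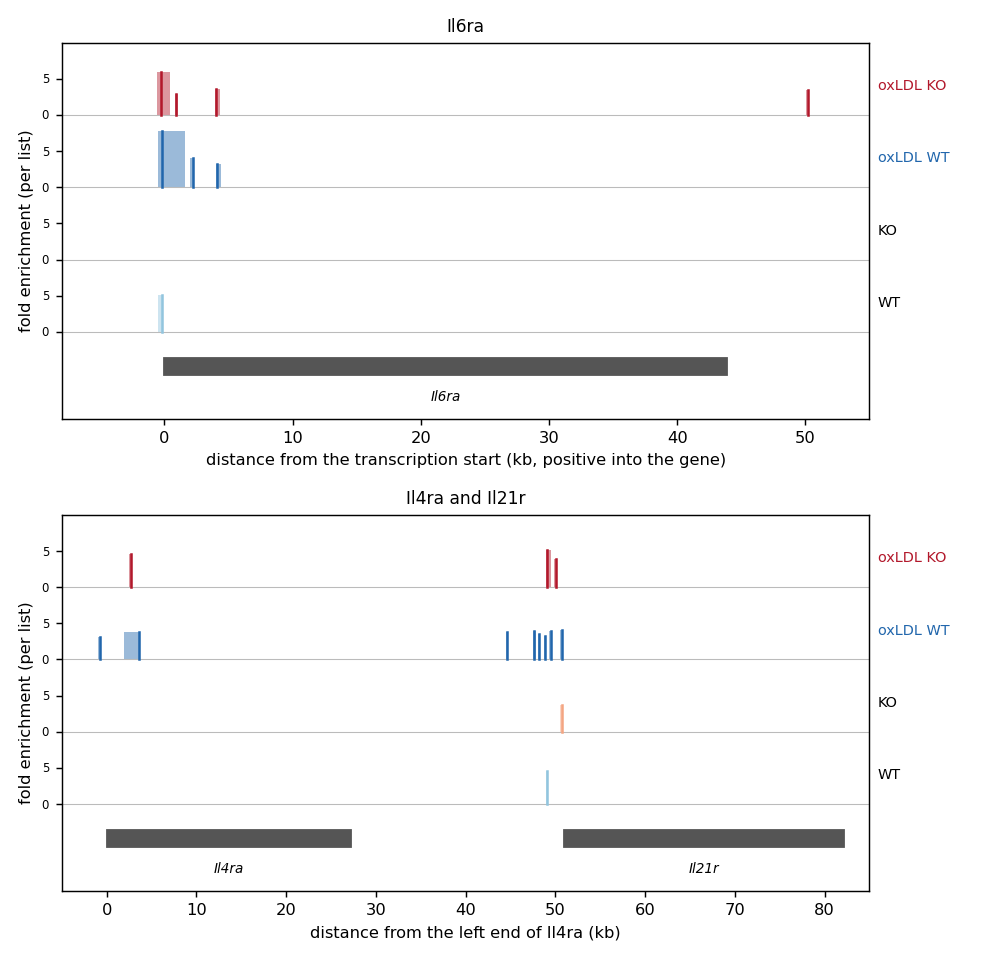
BRG1 peaks at Il6ra (top, kb from the transcription start, positive into the gene) and at Il4ra and Il21r (bottom, kb from the end of Il4ra with the lower coordinate). Shaded boxes span each peak, lines mark summits, heights are fold enrichment on a separate scale from 0 for each list, and dark bars are the receptor genes (other genes are not drawn). The Il6ra start carries peaks in oxLDL KO, oxLDL WT and WT, and the stretch before Il21r carries 2, 6, 1 and 1 peaks in oxLDL KO, oxLDL WT, KO and WT.

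Il1r1, which encodes the signalling receptor for IL-1 (chromosome 1, 40222480 to 40316201), had 1 strong peak deep inside the gene in both oxLDL lists. Its fold enrichment was 6.11 in oxLDL KO, rank 73 of 4668, and 6.51 in oxLDL WT, rank 136 of 9907. The summits, at 40294767 and 40294761, were 6 bp apart and lay 28.2 kb past the nearest annotated start. The pileups there were 26 and 30 fragments. In oxLDL WT a weaker peak of 2.81 lay 212 bp past a start, and another of 4.2 lay between Il1r1 and Il1rl2, 2.39 kb upstream of Il1rl2. Neither untreated list had a peak at Il1r1.

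The same stretch of chromosome 1 holds 6 of the receptor genes. Il1rl1, which encodes the IL-33 receptor ST2, had a peak of 4.62 inside the annotated gene span in oxLDL WT. Its summit lay 19.7 kb upstream of the transcription start used here. Il1rl2, which encodes the IL-36 receptor, shared the 4.2 peak named above. Il1r2, the decoy receptor for IL-1, had no oxLDL peak nearer than 100 kb. Il18r1 and Il18rap, which encode the chains of the IL-18 receptor, had none nearer than 55.7 and 105 kb.

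Il10ra, Il17ra and Il15ra were in oxLDL WT alone. Il10ra, the ligand-binding chain for the deactivating cytokine IL-10 (chromosome 9, 45253837 to 45269149), had 6 peaks there, as many as Il21r. A pair lay inside the gene, 0.165 and 1.51 kb from its end at the higher coordinate, with fold enrichments of 3.35 and 3.36, and one of 4.2 lay 5.39 kb beyond that end. The other 3 (4.08, 3.78 and 2.94) lay 6.13 to 7.74 kb beyond the opposite end, inside the neighbouring gene BC049352. Il17ra, the chain shared by IL-17 receptors (chromosome 6, 120463181 to 120483731), had peaks of 4.42 and 3.5 inside the gene, 0.339 and 3.38 kb from its lower-coordinate end, and one of 3.55 nearer Kdm5a. Il15ra, which presents IL-15 to neighbouring cells (chromosome 2, 11705172 to 11733985), had 1 peak of 777 bp with 4.41 whose summit was 88 bp upstream of the start and within the promoter printed above. Nearest oxLDL KO peaks were 140 kb from Il10ra, 272 kb from Il17ra and 276 kb from Il15ra.

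The other 4 macrophage receptor genes had no peak in either oxLDL list. Il1rap, the accessory chain of the IL-1 receptor, is the longest of the class on chromosomes 1 to 19 at 149 kb, and its nearest oxLDL peak lay 644 kb away. The IL-3 receptor gene Il3ra was 278 kb from one. Il1r2 is given above, and Il13ra1, which pairs with the IL-4 receptor chain, is on X.

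**Figure D4:**
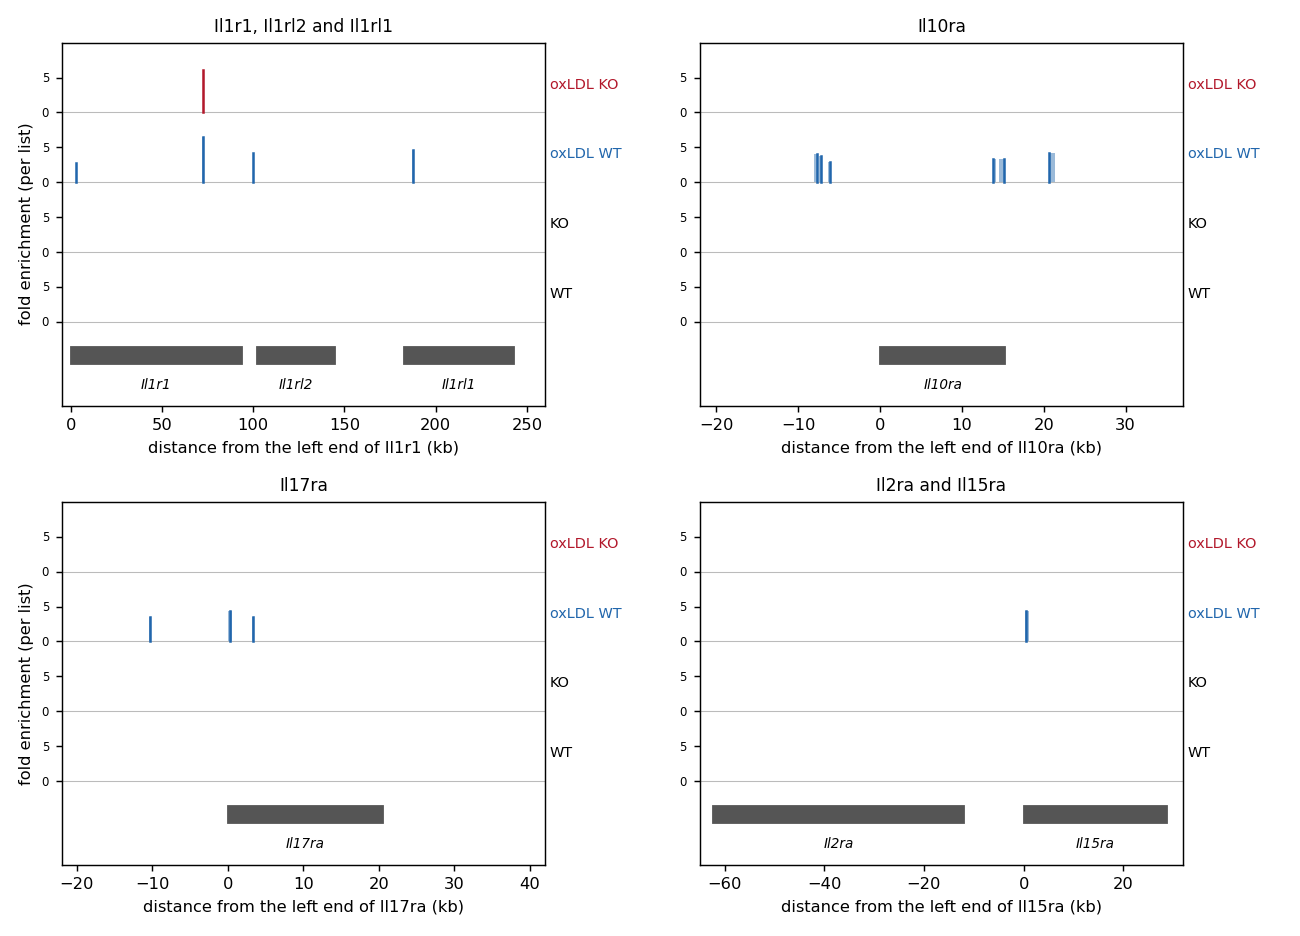
BRG1 peaks around Il1r1, Il10ra, Il17ra and Il15ra, in kb from the lower-coordinate end of each of these genes; boxes, lines and separate fold enrichment scales mark peaks and summits, and dark bars are receptor genes (other genes are not drawn). At Il1r1 the oxLDL KO and oxLDL WT lists share 1 position, 6.11 and 6.51, while the Il10ra, Il17ra and Il15ra panels hold peaks in the oxLDL WT row alone.

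Among lymphocyte receptor genes other than Il21r, most of the peaks lay nearer to another gene than to the receptor. Which gene a peak acts on was not tested. Il12rb1, the chain shared by the IL-12 and IL-23 receptors, had 1 oxLDL KO peak of 2.99 and 4 oxLDL WT peaks of 3.15 to 4.1. The oxLDL KO peak and the highest oxLDL WT peak overlapped, with summits 52 bp apart, inside Mast3. One oxLDL WT peak, of 3.99, had Il12rb1 as its nearest gene, 1.44 kb away. Il12rb2, the private IL-12 receptor chain, had overlapping peaks of 2.5 in oxLDL KO and 3.42 in oxLDL WT, both within 1 kb of an end of Serbp1 and over 18 kb from Il12rb2 itself.

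Il23r, the private IL-23 receptor chain, had 1 oxLDL KO peak of 3.93, 10.3 kb upstream, and the nearest oxLDL WT peak was 155 kb away. Il9r, the IL-9 receptor gene, had 1 oxLDL KO peak of 4.07, 19.5 kb away and nearer Mpg. Il7r, which lymphocytes need for survival signals from IL-7, had 1 oxLDL WT peak of 3.55 inside the gene, 2.35 kb past the start. Il2ra, the gene for the IL-2 receptor chain known as CD25, was counted for the Il15ra promoter peak 12.4 kb from its end. Il2rb, Il18r1 and Il18rap had no peak, with the nearest oxLDL peak of Il2rb 28.7 kb away.

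Receptors of neither class added 7 of 17 genes in oxLDL WT (41.2%, interval 21.6 to 64) and 1 in oxLDL KO (5.88%, interval 1.05 to 27). The shares of all genes were 33.2% and 21.1%, inside these wide intervals. Il20ra, a chain of the IL-20 receptor, had a peak of 4.07 inside the gene in oxLDL KO and 2 of 3.72 and 4.2 in oxLDL WT, 19.4 and 19.9 kb outside it, so it is the 1 gene of the 7 marked in both lists whose peaks did not overlap. Its partner gene Il20rb had 1 oxLDL WT peak of 5.04, 17.3 kb from the gene. Il17rc and Il17re, neighbouring genes for IL-17 receptor chains, shared 1 oxLDL WT peak of 3.78. Its summit lay 0.593 kb outside Il17rc and within 1 kb of an end of Creld1, its nearest gene. Il17rb, the IL-25 receptor gene, was counted for 1 of 3.36 inside Chdh. Il27ra, the IL-27 receptor gene known in both kinds of cell, had 1 oxLDL WT peak of 3.15 inside the gene.

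The 13 receptor genes of chromosomes 1 to 19 with no peak in either oxLDL list also included those for receptors chiefly of epithelial, stromal or other cells. These were Il11ra1, Il11ra2, Il17rd, Il22ra1, Il22ra2, Il31ra and the eosinophil receptor gene Il5ra. Their nearest oxLDL peaks lay from 28.9 kb (Il22ra2) to over 1 Mb (Il5ra) away. Il11ra1 and Il11ra2 are near-identical copies, where reads may not map uniquely. On the inner side of the 20 kb limit the closest were Il9r at 19.5 kb in oxLDL KO and Il20ra at 19.4 kb in oxLDL WT. On the outer side they were Il17rb at 27.5 kb in oxLDL KO and Il2rb at 28.7 kb in oxLDL WT.

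Set peak against peak, 8 of the 13 receptor peaks of oxLDL KO overlapped an oxLDL WT peak (1 bp or more shared; 61.5%, interval 35.5 to 82.2), beside 59.6% of the whole oxLDL KO list. In the other direction, 8 of the 37 receptor peaks of oxLDL WT overlapped an oxLDL KO peak (21.6%, interval 11.3 to 37.1), beside 27.3% of the whole oxLDL WT list. Both shares of the receptor peaks were close to those of their lists. Overlapping peaks were found at 6 genes, Il1r1, Il6ra, Il4ra, Il21r, Il12rb1 and Il12rb2. Median fold enrichment of the receptor peaks was 3.93 in oxLDL KO and 3.78 in oxLDL WT, beside 3.85 and 3.75 over the whole lists. Of the oxLDL KO receptor peaks 5 were inside a receptor gene, 2 within 1 kb outside and 6 farther out, and of the oxLDL WT peaks 13, 4 and 20. At a −log10 q of at least 5, receptor genes with a peak numbered 3 in oxLDL KO (Il1r1, Il6ra and Il21r), beside 5.12% of all genes, and 9 in oxLDL WT, beside 12.4%. Il1r1 and Il6ra were in both at that limit.

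Against the untreated lists, the oxLDL lists held more receptor genes in both genotypes, as they held more peaks in all. In the knockout, 9 receptor genes had a peak with oxLDL and 1 without (Il21r), beside 21.1% and 0.553% of all genes. In the wild type, 19 had one with oxLDL and 2 without (Il6ra and Il21r), beside 33.2% and 1.19%. Of the untreated peaks, both in WT were overlapped by an oxLDL WT peak, and the 1 in KO was not overlapped by an oxLDL KO peak but by an oxLDL WT one. The comparison of genotypes and those of treatment use the same oxLDL libraries and are not independent of each other.

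Other genes of the same pathways were counted by the same 20 kb rule. By that rule 21.1% of all protein-coding genes had a peak in oxLDL KO and 33.2% in oxLDL WT. The pathway lists are short, from 7 to 18 genes, and their counts were not tested against those shares. Shared chains, partners and antagonists had peaks at 5 of 10 in oxLDL KO and 4 in oxLDL WT. Among them Il10rb, the partner chain of the IL-10 receptor, whose window reaches the neighbouring Ifnar2, had highest values of 4.22 and 5.88, and Csf2rb, the common beta chain of the IL-3, IL-5 and GM-CSF receptors, 3.62 and 5.25. Il6st, which encodes gp130, the signalling partner of the IL-6 receptor, had 1 peak of 3.12 in oxLDL KO, and Il1rn 1 of 2.89 in oxLDL KO. Of 18 ligand genes, 0 had a peak in oxLDL KO and 4 in oxLDL WT, namely Il10 (4.2), Il1b (3.78), Il27 (3.78) and Il15 (3.57). The ligand counts lay below the shares of all genes in both lists, and those of the other pathway lists above them.

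Of 11 JAK and STAT genes, 5 had a peak in oxLDL KO and 8 in oxLDL WT. Stat6, which acts downstream of the IL-4 receptor, had highest values of 3.98 and 4.83, Jak1 4.53 and 3.15, and Stat3, which acts downstream of the IL-6 and IL-10 receptors, 4.07 in oxLDL KO alone. Of 7 genes of the MyD88 branch used by IL-1 receptors, the same 3 had peaks in both lists: Irak2 (5.43 and 5.21), Irak3 (4.3 and 4.62) and Myd88 (5.2 and 3.99). None of these pathway genes had a peak in KO or WT.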

How the data were processed

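BRG1 ChIP-seq peak lists of 4 libraries were used, 1 per group and called per library. Per the submitters' processing notes, bcl2fastq 2.17, Trimmomatic 0.33, Bowtie2, MACS3 and mm10 were used; the sources used here give no parameters and do not say what served as the peak caller's control. For each peak the authors deposited a score, a fold enrichment (ratio of pileup to local background), −log10 p and −log10 q values, and a summit offset, all used as deposited; the score was not needed. The pileup and background were solved from the deposited fold enrichment and p-value, with a pseudocount of 1 and a Poisson tail. Python 3.11.15, pandas 2.3.3 and scipy 1.17.1 were used, and the counting was tested on simulated peaks.

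Genes came from RefSeq on GRCm38.p6. A summit in the gene body or within 20 kb counted, and overlap meant at least 1 bp. No test was run, since each group has 1 library. The genes, classes and other lists were chosen with earlier results of these data known. Values are given for every receptor gene with a peak in both oxLDL lists or an untreated list, for the 10 highest of the rest, and in brief for the others. Promoters came from the RefSeq table (33 of the 39 genes matched), with at most 5 to be printed. Enzymatic digestion of the chromatin, per the labels' protocols, places fragment ends at nuclease cuts.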

Additional observations from a re-analysis of the deposited data

How the results depend on the processing

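Counts moved with the window and with the −log10 q limit. In the gene body alone, receptor genes with a peak numbered 4 in oxLDL KO, 9 in oxLDL WT, 0 in KO and 0 in WT, with 3 in both oxLDL lists, 1 in oxLDL KO alone and 6 in oxLDL WT alone, and lymphocyte receptors 0 in oxLDL KO and 1 in oxLDL WT. Within 1 kb they numbered 5, 11 and 1 in oxLDL KO, oxLDL WT and WT, with 4 in both, 1 and 7 in oxLDL KO and oxLDL WT alone, and lymphocyte receptors 1 and 2. In the gene body the receptor shares were 10.3% in oxLDL KO and 23.1% in oxLDL WT, beside 11.9% and 19.3% of all genes. At 1 kb the receptor shares were 12.8% in oxLDL KO and 28.2% in oxLDL WT, beside 13.1% and 21.6% of all genes. The excess of the receptors in oxLDL WT was thus smaller in these windows than at 20 kb. Within 5 kb, 1 was in oxLDL KO alone and lymphocyte receptors were 2 and 3; within 50 kb, KO had 2 receptor genes. With peaks limited to a −log10 q of 5 or more, they numbered 3 in oxLDL KO, 9 in oxLDL WT, 0 in KO and 0 in WT, with 2 in both, 1 and 7 in oxLDL KO and oxLDL WT alone, and lymphocyte receptors 1 and 2. With each peak given to its nearest gene, an alternative chosen after seeing the data, 1 was in oxLDL KO alone and lymphocyte receptors were 2 and 3. Of 187 alternative values, 142 kept within 1.5 times the count or within the interval of the share. These included every count and share under a −log10 q limit of 2 or one −log10 p limit of 5.33 for all lists. They also included those with any peak base in the window, no high-background peaks, chromosomes 1 to 19 alone and stricter overlap. Counting Il2rg and Il27ra in both classes was likewise among them, and no other change of class was tried. The intervals of the overlap shares are wide. With summits at most 200 bp apart, the shares were 38.5% in oxLDL KO and 13.5% in oxLDL WT, against 61.5% and 21.6%. No paired analysis was possible because each group has 1 library. Pileups of 13 to 36 fragments in the oxLDL WT receptor peaks limit what can be read from single peaks, and a gene without a peak may be bound below the caller's limit.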
